A study of Homo sapiens with 8 samples.

Results

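The genes described here are 10 components of noncanonical Wnt signalling: the ligand genes WNT5A and WNT5B, the receptor genes ROR1, ROR2, RYK, FZD2, FZD5 and FZD6, and the planar polarity genes VANGL1 and VANGL2. They were chosen by symbol with earlier results of this same comparison known, above all the fall of WNT5A, and all 10 were found among 19775 genes measured. They were represented by 22 of 41097 probe sets that carry a single gene symbol, and for each gene the brightest probe set, by its mean across all arrays, stands as the main one. RNA came from HuCCT1, an established human cholangiocarcinoma line, and was hybridised to 8 expression arrays. In 4 samples the cells carried a scrambled control shRNA, and in 4 they carried the shRNA labelled YAP shRNA 1, directed against YAP1. All 8 samples, controls included, received doxycycline at 100 ng/ml for 3 days before seeding to switch the shRNA on. A single YAP1 shRNA and a single cell line were used, so an effect of YAP1 loss and one particular to that shRNA or line cannot be told apart. Nothing in the labels says whether replicates were separate cultures, so the spread between arrays may be technical.

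WNT5A is the prototype of the Wnt ligands that act without stabilising beta-catenin. It binds Frizzled receptors together with the receptor tyrosine kinase-like proteins ROR1 and ROR2 or the pseudokinase RYK, and signals through Dishevelled to small GTPases, JNK and calcium release. The VANGL membrane proteins belong to the core planar cell polarity machinery that this branch engages, which orients cells and shapes their movement. YAP is the transcriptional coactivator restrained by the Hippo pathway, and it acts mainly through TEAD transcription factors.

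Every value is on the log2 scale, and every difference below is YAP shRNA minus control shRNA on that scale. The array medians lay between 6.22 and 6.25, and the number of arrays limits the precision. YAP1 itself, the target of the shRNA, had values of 12.64 ± 0.086 (SD, n = 4) with the control shRNA and 10.50 ± 0.070 (SD, n = 4) with the YAP shRNA (exact permutation test, two-sided, p = 0.0286, which is the lowest possible for 4 arrays against 4). The classical YAP targets CCN1 and CCN2 encode matricellular proteins: CCN1 fell by 1.00 and CCN2 fell by 1.27 (limma adjusted p = 7.92e-06 and 0.000103). The 7 biliary and epithelial markers measured, among them KRT7, KRT19 and EPCAM, had a mean log2 value of 13.38 to 13.40 on control arrays and 13.42 to 13.43 on YAP shRNA arrays, without overlap. Of these 7, CDH1 rose by 0.33 and KRT19 by 0.15 (limma adjusted p = 0.000376 and 0.0137). The other 5 were not called: KRT7, KRT8, KRT18 and SOX9 stood at -0.085, -0.069, -0.046 and -0.072, and EPCAM at 0.0060. The median difference of the 7 was -0.046, so the higher list mean does not describe most of them. The part of these markers in the results below was not tested. The list means of fibroblast markers overlapped between groups, at 5.69 to 5.99 on control and 5.84 to 5.95 on YAP shRNA arrays, although 1 of 7, COL1A1, rose by 0.52 (limma adjusted p = 0.00316). Those of the 4 leukocyte markers measured did not overlap, at 4.76 to 4.95 and 5.04 to 5.19: LYZ and CD14 rose and PTPRC fell by the same fit, and their part in the results below was not tested. Of 6 hepatocyte markers 1 rose. Of 5 endothelial markers limma called 0, with 1 at an unadjusted p under 0.05, beside 5785 of 19775 genes. Control shRNA replicate 4 correlated least with its group across genes (mean r = 0.9967, against 0.9978 to 0.9980 for the other control arrays), and results on the 10 genes that turn on it are given with and without it.

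Among the 10 genes, WNT5A and FZD2 fell, FZD5 rose, and the other 7 did not pass the threshold of the fit across all genes (limma adjusted p below 0.05). In that fit 16.7% of all genes passed, 9.49% upward and 7.17% downward. The genes were listed with this contrast known, so these calls and the values below describe the members and support nothing. The median difference of the 10 was -0.0055, beside 0.013 over all genes. The YAP shRNA arrays lay wholly above or below the control arrays for 3 of the 10, while the groups did not overlap for 24.3% of all genes. Without control shRNA replicate 4 VANGL2 passed as well, giving 4 genes, while the number passing over all genes went from 3294 to 3881.

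**Figure D1:**
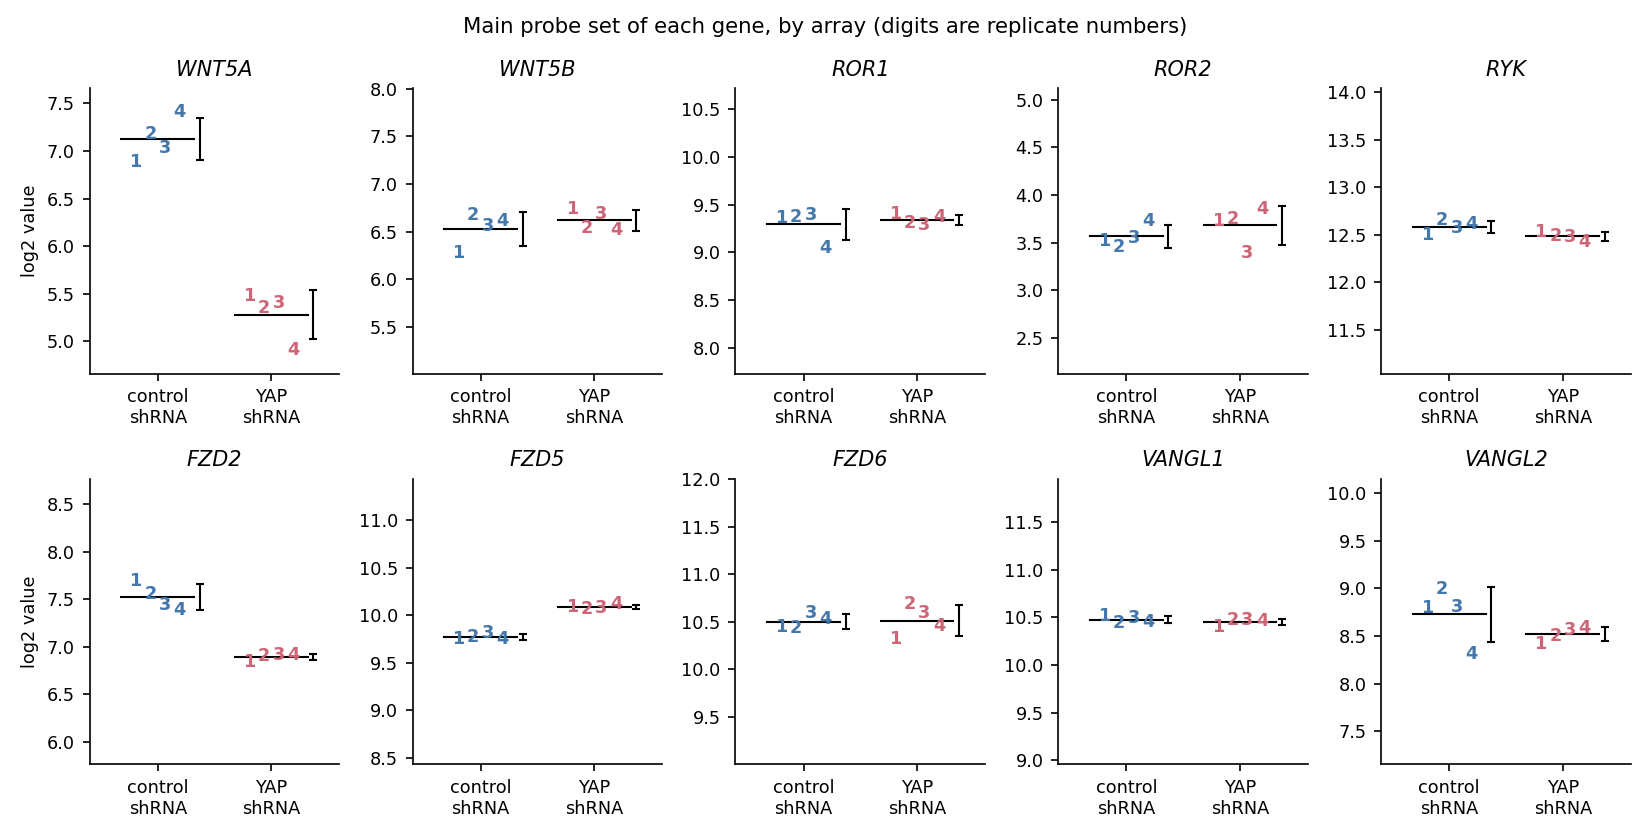
Log2 value (y axis) of the main probe set of each of the 10 genes on control shRNA and YAP shRNA arrays (x axis). Digits mark the replicate number, the horizontal line the group mean and the bar 1 SD to each side, and every panel spans the same log2 range. The 4 YAP shRNA arrays of WNT5A lie between 4.91 and 5.48, below the lowest control array at 6.89, while ROR1 and VANGL2 each have control replicate 4 below the other controls.

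WNT5A moved most of the 10. Its main probe set, 205990_s_at, read 6.89, 7.18, 7.03 and 7.41 on control arrays 1 to 4 and 5.48, 5.35, 5.40 and 4.91 on YAP shRNA arrays 1 to 4. The groups did not overlap, with YAP shRNA replicate 4 the lowest array. The mean fell from 7.13 ± 0.22 to 5.28 ± 0.25 (SD, n = 4 and 4), a difference of -1.85 with a standard error of 0.15 and a 95% interval of -2.18 to -1.51. That is a 3.59-fold lower level, and 8 genes, WNT5A included, fell at least as far. In bulk RNA, fewer cells that express a gene and less of its RNA per cell cannot be told apart. The second WNT5A probe set, 213425_at, read 6.74, 6.09, 6.70 and 6.81 in the controls and 4.79, 4.62, 4.95 and 5.09 with the YAP shRNA. It fell by 1.72 (standard error 0.17), again without overlap, although its lowest control was replicate 2 and its highest YAP shRNA array was replicate 4, the array that was lowest on the main probe set. Both probe sets therefore shared the direction between groups but not the order of arrays within them. A limit of 5.15 bounds the dimmest 25% of genes by mean level. YAP shRNA replicate 4 of the main probe set and all 4 YAP shRNA arrays of the second lay under it. Values this low may be near background, so the fold size and the order of the YAP shRNA arrays are uncertain.

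Because WNT5A carried the largest change, the DNA just upstream of its annotated starts was read, beside that of CCN2, whose promoter is a textbook TEAD target. RefSeq (GRCh38.p14) gives 2 WNT5A starts in the table used, both on the minus strand, and the 250 bases before each are chr3:55481399-55481648 (downstream start) and chr3:55487307-55487556 (upstream start). The CCN2 window is chr6:131951373-131951622, also on the minus strand. Capitals mark the TEAD core motif GGAATG, searched on both strands.
WNT5A, downstream start: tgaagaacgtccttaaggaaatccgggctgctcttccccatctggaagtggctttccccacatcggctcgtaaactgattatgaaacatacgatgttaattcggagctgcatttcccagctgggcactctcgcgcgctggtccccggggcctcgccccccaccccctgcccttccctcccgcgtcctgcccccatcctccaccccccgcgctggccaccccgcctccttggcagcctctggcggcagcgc
WNT5A, upstream start: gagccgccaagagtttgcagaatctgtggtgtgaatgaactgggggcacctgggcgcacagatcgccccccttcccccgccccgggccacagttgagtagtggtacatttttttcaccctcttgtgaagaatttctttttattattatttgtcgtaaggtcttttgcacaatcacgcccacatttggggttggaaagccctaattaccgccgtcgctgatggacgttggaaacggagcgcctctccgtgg
CCN2: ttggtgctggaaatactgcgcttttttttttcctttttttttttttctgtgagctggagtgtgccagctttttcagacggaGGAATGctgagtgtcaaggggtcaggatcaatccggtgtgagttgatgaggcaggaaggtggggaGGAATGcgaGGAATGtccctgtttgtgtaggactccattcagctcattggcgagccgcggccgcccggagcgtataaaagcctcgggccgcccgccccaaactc
The CCN2 window held 3 matches, whose first bases lay 169, 104 and 95 bases before the start. Neither WNT5A window held one, which says only that these letters are not in these windows. The motif occurred in 11.9% of 35116 windows of this length in the table. Of the 10 genes, 8 had entries, with 11 windows, and 1 window held the motif: that of a VANGL1 start, 240 bases before it. The AP-1 motif TGANTCA, which reads the same on both strands, occurred in 6.57% of all windows, and the TCF/LEF motif ATCAAAG in 2.26%. Of the 11 windows 0 held either motif. No 2 matches overlapped. GC content ran from 50.8% to 78.0% over the 11 windows, and was 64.4% and 52.8% in those of WNT5A.

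WNT5B, which encodes the closest relative of WNT5A, did not pass the threshold. Its main probe set, 223537_s_at, read 6.27, 6.68, 6.56 and 6.61 in the controls and 6.74, 6.53, 6.68 and 6.51 with the YAP shRNA. The groups overlapped throughout, and the difference was 0.089 with a 95% interval of -0.13 to 0.30. The other WNT5B probe sets, 221029_s_at and 230299_s_at, gave -0.18 and -0.046 and did not pass either. Both were dim, with control means of 4.72 and 4.37, under the limit of 5.15, so they say little about WNT5B. The interval on the main probe set, which takes the arrays as independent, does not reach a fall of the size seen for WNT5A. A difference between the ligands was not tested, since WNT5A was chosen for its fall.

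The ROR and RYK receptors showed smaller differences. For ROR1, a receptor tyrosine kinase-like protein that binds WNT5A through its extracellular domain, the probe sets disagreed. The main one, 205805_s_at, read 9.36, 9.37, 9.39 and 9.05 in the controls and 9.40, 9.30, 9.29 and 9.37 with the YAP shRNA. Control replicate 4 stood alone below all other arrays, and the difference was 0.047 (standard error 0.080), or -0.036 without that array. The probe set 232060_at read 9.35, 9.26, 9.29 and 9.28 in the controls and 9.12, 9.05, 9.00 and 8.94 with the YAP shRNA. It fell by 0.27 (standard error 0.051) without overlap, in a fit over every probe set in which 13.6% of probe sets passed. The third, 211057_at, had a difference of -0.047. Taken within each array, 232060_at minus 205805_s_at was -0.015, -0.11, -0.10 and 0.24 in the controls and -0.28, -0.25, -0.29 and -0.42 with the YAP shRNA. The difference between the probe sets was thus lower on every YAP shRNA array than on any control array, so the probe sets changed unequally. ROR1 as a gene has no single direction in these data.

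ROR2, the other ROR-family receptor for WNT5A, was dim. Its 1 probe set read 3.46 to 3.73 in the controls and 3.39 to 3.85 with the YAP shRNA, under the limit of 5.15 that bounds the dimmest 25% of genes by mean level. The groups overlapped, and the difference was 0.12 (95% interval -0.12 to 0.35). RYK, a Wnt receptor with an inactive kinase domain, read 12.50, 12.65, 12.57 and 12.62 in the controls and 12.53, 12.49, 12.48 and 12.43 with the YAP shRNA. Only YAP shRNA replicate 1 reached into the control range. The difference was -0.10 (95% interval -0.21 to 0.0026) and did not pass. The other RYK probe sets gave -0.085 and -0.090, so all 3 were lower with the YAP shRNA, none past the threshold.

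**Figure D2:**
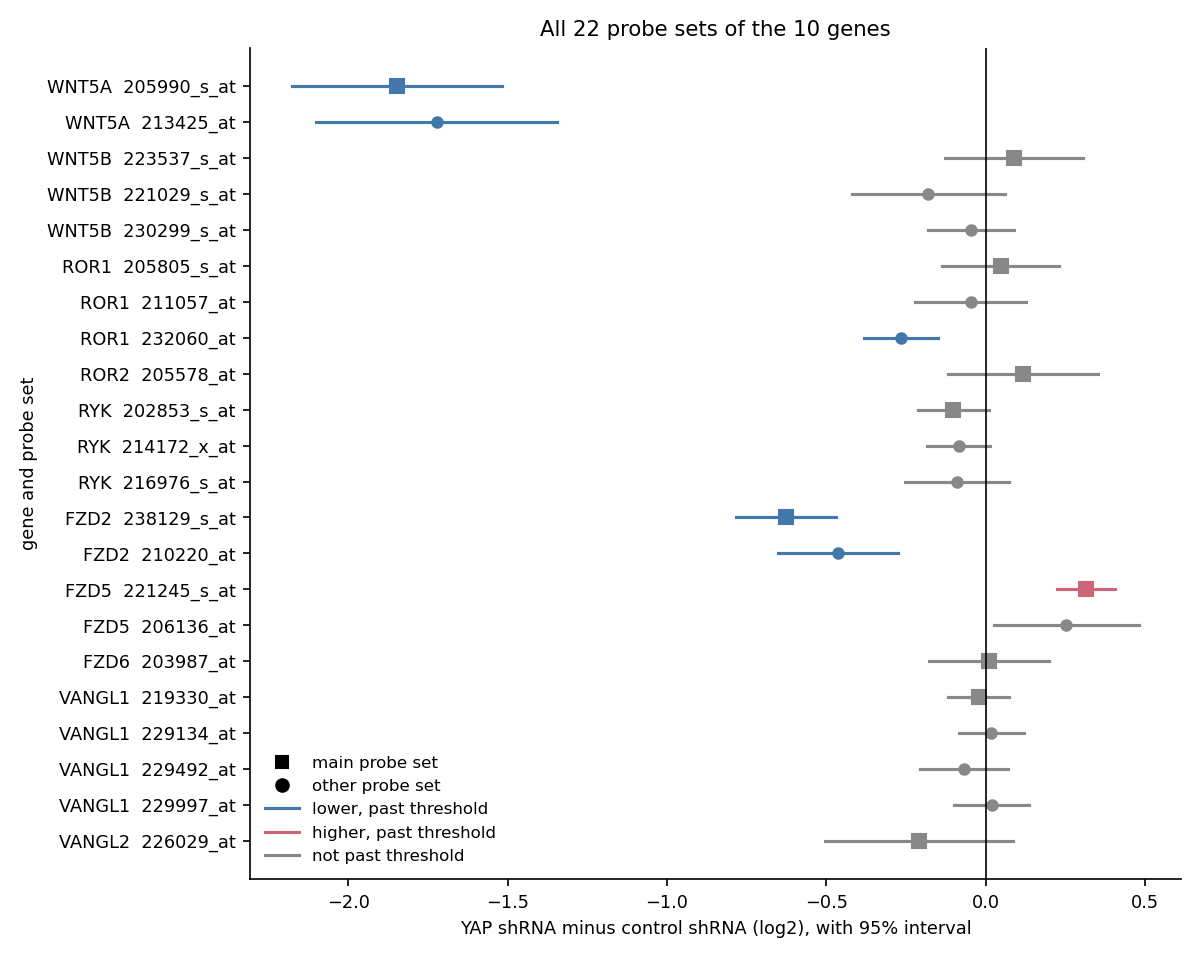
Difference between YAP shRNA and control shRNA (x axis, log2, with its 95% interval from the fit over all probe sets) for the 22 probe sets of the 10 genes (y axis). Squares are main probe sets and circles the others, blue is lower and red higher past the threshold, and grey did not pass. Both probe sets of WNT5A and both of FZD2 lie wholly to the left of 0, while 1 of 3 for ROR1 does.

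The Frizzled receptors went in different directions. FZD2, a seven-pass Wnt receptor that transmits WNT5A signals, fell on both of its probe sets. The main one, 238129_s_at, read 7.69, 7.56, 7.44 and 7.39 in the controls and 6.84, 6.91, 6.91 and 6.91 with the YAP shRNA. The YAP shRNA arrays lay close together and wholly below the controls, with a difference of -0.63 (standard error 0.067), or 1.54-fold. The second, 210220_at, read 7.46, 7.31, 7.47 and 7.24 in the controls and 7.03, 6.95, 6.92 and 6.71 with the YAP shRNA. It fell by 0.46 (standard error 0.083), also without overlap.

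FZD5, a Frizzled that binds WNT5A and can also feed the beta-catenin branch, rose. Its main probe set, 221245_s_at, read 9.75, 9.77, 9.82 and 9.75 in the controls and 10.09, 10.07, 10.08 and 10.12 with the YAP shRNA. Within each group the arrays differed by less than the groups did, and the difference was 0.32 (standard error 0.036), or 1.24-fold. The second probe set, 206136_at, read 5.91, 5.86, 5.94 and 6.24 in the controls and 6.27, 6.37, 6.28 and 6.03 with the YAP shRNA. Control replicate 4 and YAP shRNA replicate 4 crossed, and its difference of 0.25 (standard error 0.10) did not pass. FZD6, a Frizzled tied to planar polarity, read 10.45, 10.43, 10.60 and 10.53 in the controls and 10.32, 10.69, 10.59 and 10.45 with the YAP shRNA. The YAP shRNA arrays enclosed the control range, and the difference was 0.011 (95% interval -0.17 to 0.20). The 716 genes of chromosome 8, where FZD6 lies, had a median difference of 0.066, beside 0.013 over all genes. For the other chromosomes that carry any of the 10 genes it ran from -0.0034 to 0.024. The part of chromosome in these values was not tested.

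The VANGL genes encode the four-pass membrane proteins at the centre of the planar polarity complex. VANGL1 differed little on any of its 4 probe sets. Its main probe set read 10.44 to 10.51 in the controls and 10.40 to 10.47 with the YAP shRNA, a difference of -0.022 with a 95% interval of -0.11 to 0.063. The other 3 VANGL1 probe sets gave 0.017, -0.068 and 0.018, and none of the 4 passed. VANGL2 read 8.80, 8.99, 8.80 and 8.31 in the controls and 8.42, 8.51, 8.57 and 8.58 with the YAP shRNA. Control replicate 4 lay below all 4 YAP shRNA arrays and the other 3 controls lay above them. With all arrays the difference was -0.21 (standard error 0.13) and did not pass, and without control replicate 4 it was -0.35 (standard error 0.064) and passed. The reading for VANGL2 therefore rests on 1 array.

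**Figure D3:**
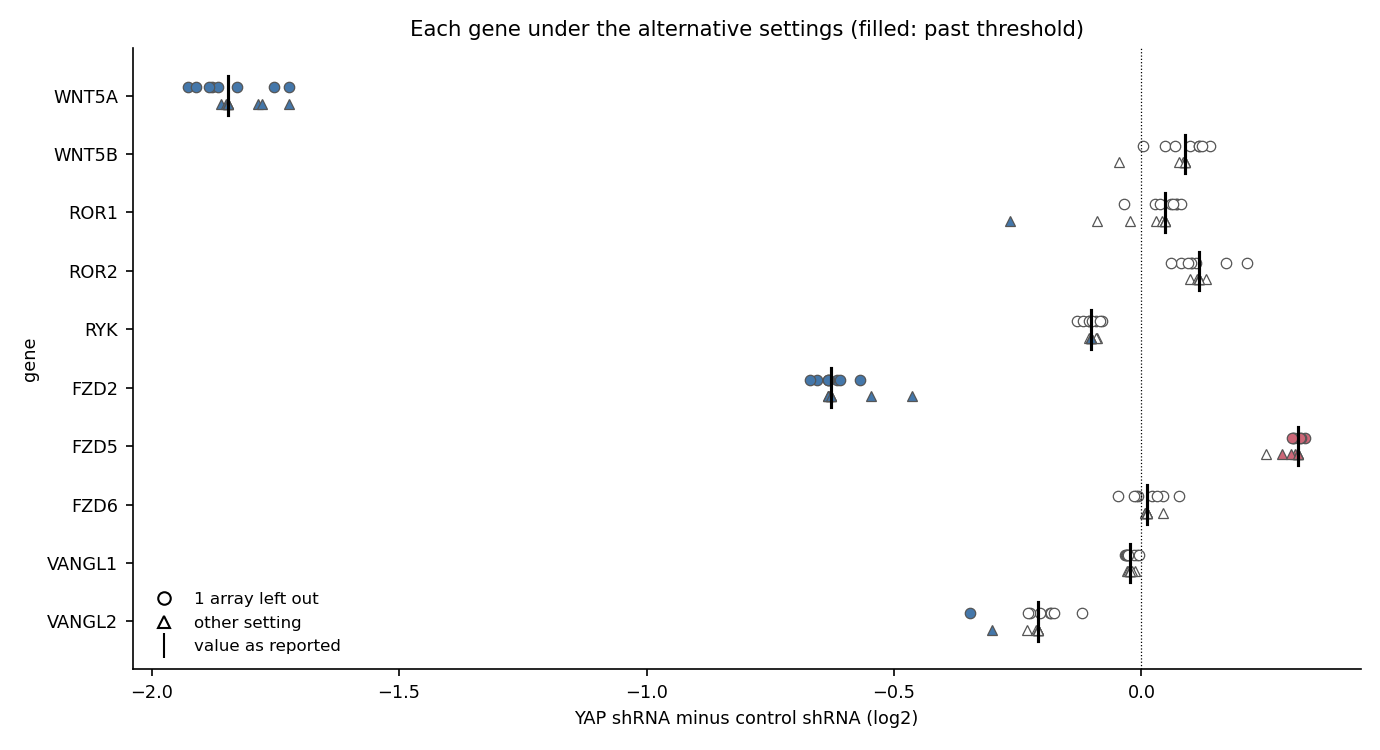
Difference between YAP shRNA and control shRNA (x axis, log2) for each of the 10 genes (y axis) with 1 array left out (circles) and under the other settings (triangles), filled where the threshold was passed. The bar is the value as reported. WNT5A stays between -1.93 and -1.72 and FZD2 between -0.67 and -0.46, while ROR1 spreads from -0.27 to 0.080.

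The genes whose profile lay nearest to that of WNT5A were found by centring each gene on its control mean and taking the root mean square difference from WNT5A over the 8 arrays. They were VSTM1, an immunoglobulin-domain receptor gene (0.23), MSRB3, a methionine sulfoxide reductase gene (0.23), AOX1, the aldehyde oxidase gene (0.24), SERPINB7, a clade B serpin gene (0.25), and MFAP5, a microfibril glycoprotein gene (0.25). The measure is dominated by the fall between groups. Within groups the profiles differed. On control replicate 4, WNT5A stood 0.28 above its control mean, MFAP5 0.32 above its own, AOX1 0.12 and MSRB3 0.011. VSTM1 stood at -0.16 and SERPINB7 at -0.11 on that array. YAP shRNA replicate 4 was the lowest array for the main WNT5A probe set, at -2.22. It was also the lowest for VSTM1 at -2.25 and AOX1 at -1.81. MFAP5 stood there at -1.62, SERPINB7 at -1.87 and MSRB3 at -1.79, the highest YAP shRNA array of MSRB3. The second WNT5A probe set, 213425_at, was highest on replicate 4 among the YAP shRNA arrays. The likeness to VSTM1 and AOX1 on that array therefore rests on the main probe set.

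**Figure D4:**
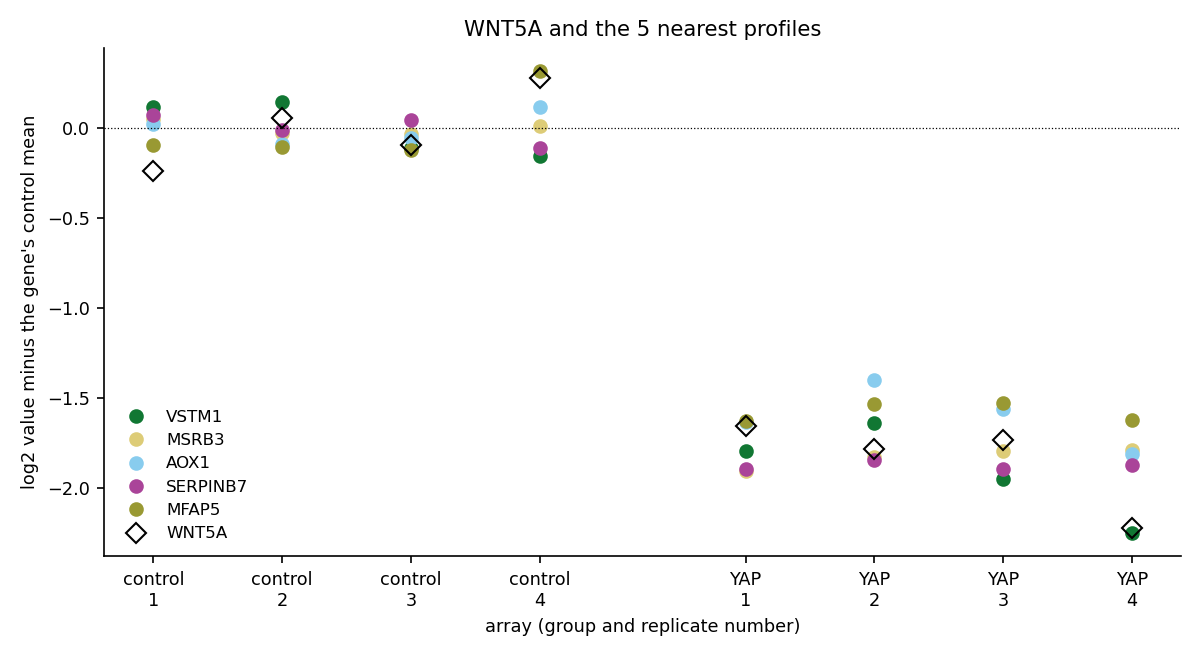
Log2 value minus the gene's own control mean (y axis) on each of the 8 arrays (x axis, group and replicate number) for WNT5A (open diamonds) and the 5 genes with the nearest profiles (coloured circles). All 6 genes lie between -2.25 and -1.40 on the YAP shRNA arrays, and WNT5A, VSTM1 and AOX1 are lowest on YAP shRNA replicate 4. WNT5A is drawn from its main probe set, and its second probe set was highest of the YAP shRNA arrays on replicate 4.

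Around these genes, 8 further lists of the Wnt pathway held 111 genes, of which 104 were measured. In the fit across all genes 12 of them rose and 10 fell, or 21.2% of those measured, beside 16.7% of all genes. Of these 22 calls, 10 held with each array left out in turn, among them those of WNT7B, FZD4, CELSR1, PRICKLE2, DVL3, DAAM1, JUN, NFATC2 and NFATC3. Under every setting tried, 5 held: CELSR1, PRICKLE2, JUN, NFATC2 and NFATC3. None of the 22 differences reached the size seen for FZD2.

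Planar polarity partners moved in both directions, as did genes across the array. Of 14 measured, 4 rose and 2 fell, or 42.9% beside 16.7% of all genes. Their median was 0.012, beside 0.013 over all genes. CELSR1, an atypical cadherin of the planar polarity core, rose by 0.45 (standard error 0.074; limma adjusted p = 0.00378). PRICKLE2, a cytoplasmic core component that binds VANGL proteins, fell by 0.45 (standard error 0.067; limma adjusted p = 0.00231). The Dishevelled genes DVL3 and DVL1, which relay Frizzled signals, rose by 0.21 and 0.29, CELSR3 rose by 0.30, and ANKRD6, which encodes the Dishevelled-binding protein Diversin, fell by 0.22. The number called dropped from 6 to 3 without control replicate 2 or 3 or without YAP shRNA replicate 1 or 3. ANKRD6, CELSR3 and DVL1 kept their calls in 3, 1 and 1 of the 8 fits with 1 array left out, and DVL1 was among those lost without control replicate 4 (limma adjusted p = 0.0667).

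Among 24 noncanonical effectors, 2 rose and 4 fell, or 25% beside 16.7% of all genes, with a median of -0.055. Among those that fell, JUN, the AP-1 subunit activated by JNK, fell by 0.31 (standard error 0.038; limma adjusted p = 0.000936). NFATC2, a calcineurin-dependent transcription factor of the calcium branch, fell by 0.40 (standard error 0.043; limma adjusted p = 0.000428), and its relative NFATC3 rose by 0.22 (limma adjusted p = 0.00687). The calcineurin catalytic subunit gene PPP3CA fell by 0.20. DAAM1, a formin that binds Dishevelled, rose by 0.26 (limma adjusted p = 0.00281). With 1 array left out, 5 to 7 of the list were called, and PPP3CA lost its call without control replicate 2 or YAP shRNA replicate 3 or 4.

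Other receptors and ligands changed by small amounts. Of 11 measured Frizzleds and co-receptors, 3 rose and 1 fell, or 36.4% beside 16.7% of all genes, with a median of 0.065. FZD4 rose by 0.26 (limma adjusted p = 0.00492), although the mean of its probe sets gave -0.052. LRP5, the beta-catenin branch co-receptor, rose by 0.21, PTK7, a pseudokinase of planar polarity, rose by 0.23 and MCAM, which encodes a WNT5A-binding adhesion molecule, fell by 0.28. LRP5, PTK7 and MCAM kept their calls in 3, 2 and 2 of the 8 fits with 1 array left out, and PTK7 was among those lost without control replicate 4 (limma adjusted p = 0.0559). For PTK7 the sign turned with the choice of probe set, down to -0.30. MCAM also lost its call without probe sets ending in _x_at or _s_at and with replicate number as a block. The count of Frizzleds and co-receptors called dropped from 4 to 2 without control replicate 2. It dropped to 1 without control replicate 3 or YAP shRNA replicate 2, 3 or 4. Of 15 measured Wnt ligands besides the WNT5 genes, 13.3% were called, beside 16.7% of all genes, and the median was 0.040. WNT7A rose by 0.20 (limma adjusted p = 0.0349) and WNT7B fell by 0.23 (limma adjusted p = 0.0105). WNT7A was no longer called without control replicate 1, 2 or 3 or YAP shRNA replicate 1, 2 or 3, and 4 ligands were called without control replicate 4. WNT7B lost its call without probe sets ending in _x_at or _s_at and with replicate number as a block.

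Secretion factors, antagonists and the core and feedback genes of the beta-catenin branch had 14.3%, 8.33%, 18.2% and 0% called, beside 16.7% of all genes. Of 7 genes of Wnt secretion and release, GPC6, a glypican gene, fell by 0.45 (limma adjusted p = 0.0291). It was no longer called without control replicate 2 or 3 or YAP shRNA replicate 1, 2 or 3, and 2 members were called without control replicate 4. Of 12 secreted antagonists and their receptors, DKK3 fell by 0.54 (limma adjusted p = 0.0302), a call lost without control replicate 1 or 4 or YAP shRNA replicate 1, 2 or 4. Without probe sets ending in _x_at or _s_at, DKK3 stood at -0.095 (limma adjusted p = 0.589). Of 11 core genes of the beta-catenin branch, TCF7L2, its transcription factor, and PYGO2, a nuclear coactivator, rose by 0.20 and 0.16 (limma adjusted p = 0.0200 and 0.0332). That count dropped to 1 without control replicate 2 or YAP shRNA replicate 4 and to 0 without control replicate 1 or 3 or YAP shRNA replicate 1 or 2. Of 10 measured feedback targets of beta-catenin, limma called 0, and 0 had an unadjusted p under 0.05, beside 5785 of 19775 genes. Their control means ran from 4.15 for LGR5 to 9.64 for TNFRSF19, so for the dimmer ones the lack of a call says little. ASCL2 had the smallest adjusted p, with a difference of -0.12 (limma adjusted p = 0.225), and AXIN2, the standard readout of the branch, stood at -0.12 (limma adjusted p = 0.540). Without control replicate 4, 1 of the 10 was called, TNFRSF19 at 0.24.

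**Figure D5:**
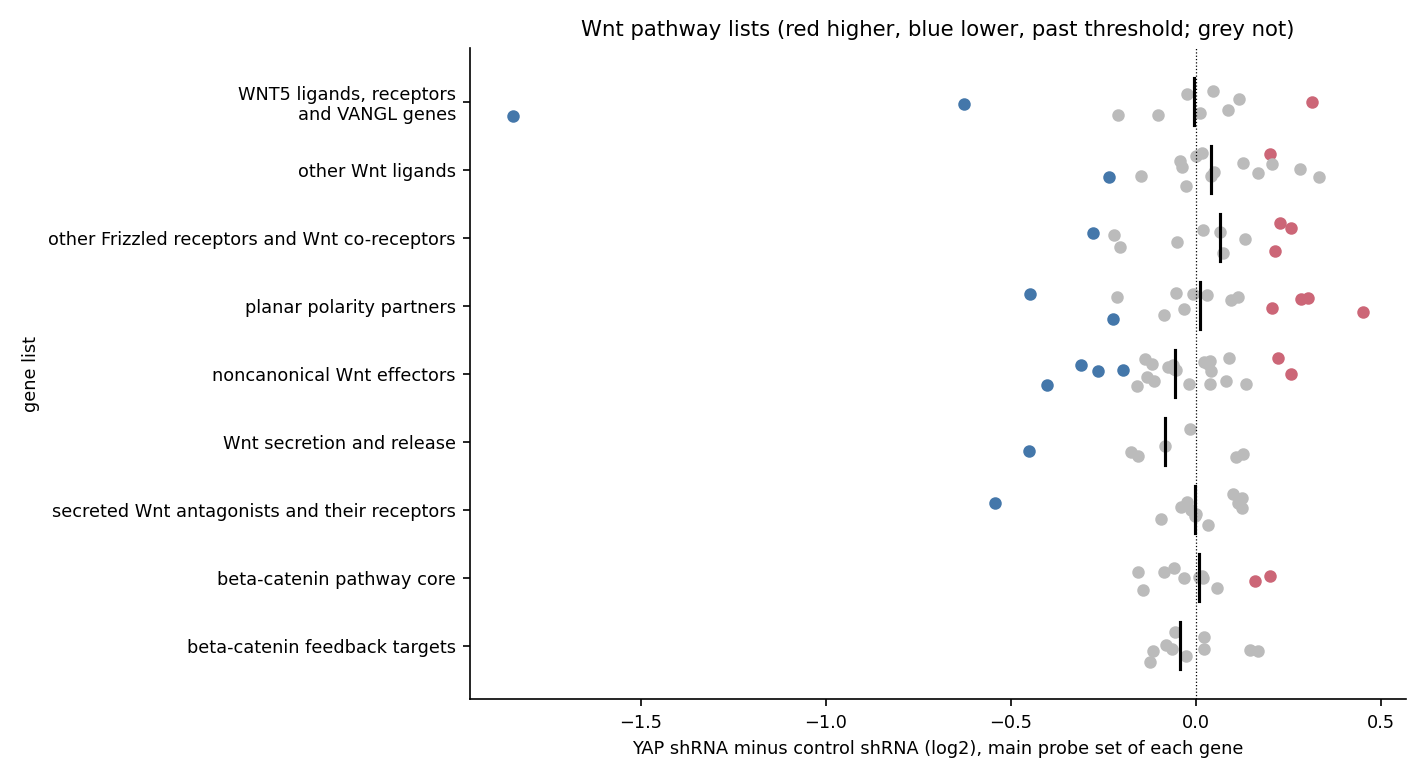
Difference between YAP shRNA and control shRNA (x axis, log2, main probe set) for every measured gene of the WNT5 group and of the 8 further Wnt lists (y axis). Red rose, blue fell, grey did not pass, and the black bar is the median of the list. WNT5A at -1.85 stands farthest from 0, followed by FZD2 at -0.63 and DKK3 at -0.54, which stood at -0.095 without probe sets ending in _x_at or _s_at.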

How the data were processed

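The authors deposited a log2 value for each probe set on each array. That the scale is log2 rests on its range, 1.72 to 14.9, and how the values were background-corrected, summarised and normalized is not given in the sources used here. They were analysed as deposited. Per the labels, column-purified RNA went through NuGEN amplification and biotin labelling. Symbols came from GEO's platform annotation, which gave 1 symbol to 41097 of 54675 probe sets, several to 1801 and none to 11777; through Entrez IDs, 41043 matched RefSeq. Values carry no detection call, and 0 array pairs were identical.

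Sample titles gave the groups and replicate numbers. limma 3.58.1 (R 4.3.3) was fitted to 1 probe set a gene with empirical Bayes moderation and no block, and p-values were adjusted by Benjamini-Hochberg over 19775 genes, with a threshold of 0.05. The members and lists were chosen with earlier results of these data known. Named are every member and its probe sets, the called genes of each Wnt list (a few are not reported here) or otherwise the one with the smallest adjusted p, YAP1, CCN1, CCN2 and the 5 profiles nearest to WNT5A; AXIN2 and the genes in the last section were added after their values were seen. Not matched here were WNT3, WNT3A, FZD8, PRICKLE4, CAMK2B, PORCN and TCF7. In a simulation of this comparison (19775 genes, 100 changed at each size), limma recovered 80% of changes of 0.5 log2 and 96% of changes of 1 log2, with 9 unchanged genes called. The data had 3294 genes called, far more than were changed in the simulation. Neither the recovery nor the 9 false calls can therefore be carried over to the data. Changes under 0.5 log2 were not among the sizes simulated, so the recovery says nothing on genes with smaller differences. RefSeq promoter windows were cut to the 250 bases before the start. As alternatives, arrays were quantile-normalized or centred on their medians, the dimmest 25% of genes or the probe sets ending in _x_at or _s_at were dropped, probe sets were averaged or all tested, the spread was trended and robust, arrays were weighted, replicate number was a block, or 1 array was omitted. Figures were drawn with matplotlib 3.10.9.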

Additional observations from a re-analysis of the deposited data

Results flagged for a closer look

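In 106 groups of 4 values, taken from the genes named and the further probe sets of the 10 WNT5 pathway genes, 9 held a single array well apart from the rest. At this limit chance alone would flag about 5.3 of 106 independent groups of normal values. The groups here share the same 8 arrays, so that number is only a guide. Control shRNA replicate 4 accounts for 4 of the 9. In that array ROR1 was lower at 9.05 (9.36 to 9.39 in the other controls), CELSR3 lower at 9.78 (10.14 to 10.16), CCN1 lower at 12.43 (12.52 in the others) and MFAP5 higher at 10.61 (10.17 to 10.20). In YAP shRNA replicate 1, FZD2 was lower at 6.84 (6.91 in the others) and VANGL1 lower at 10.40 (10.47 in the others). YAP1 was higher in control replicate 3 at 12.77 (12.59 to 12.61), NFATC2 lower in control replicate 1 at 11.83 (11.95 to 11.97), and the WNT5A probe set 213425_at lower in control replicate 2 at 6.09 (6.70 to 6.81).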

How the results depend on the processing

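WNT5A and FZD2 kept their direction and their call under all 17 alternatives, at -1.93 to -1.72 and -0.67 to -0.46. The number of the 10 genes called was 3 or 4 under each. FZD5 was not called without probe sets ending in _x_at or _s_at (0.25), where its dimmer probe set stands for it. RYK passed with a trended, robust spread, and VANGL2 with array weights (-0.30) and without control replicate 4 (-0.35). The sign turned for ROR1 with the mean of probe sets (-0.089), without those probe sets (-0.27, past the threshold), with array weights (-0.023) and without control replicate 4 (-0.036; 0.080 at the other end with 1 array left out), and for WNT5B with the mean of probe sets (-0.046). For FZD6 it turned with some arrays left out, where values ran from -0.047 to 0.076. Quantile normalization and median centring turned no sign among the 10.

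The replicate block gave 2106 genes over the whole array in place of 3294, and 1 Frizzled or co-receptor, 2 planar polarity partners and 0 ligands, secretion factors and beta-catenin core genes. It changed no call among the 10. Same-numbered arrays did not deviate together (r of -0.17, -0.059, 0.0020 and -0.21 across genes for numbers 1 to 4). Of the 4 control arrays, 0 was closest to its own number. The values thus show no pairing by number, but they cannot tell whether same-numbered arrays were handled together, which the labels do not say.

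Ligands called numbered 1 with quantile normalization, without the probe sets ending in _x_at or _s_at and with the trended, robust spread, and 4 with array weights. Planar polarity partners numbered 3 with the mean of probe sets. Without the same probe sets, Frizzleds and co-receptors numbered 2. Secretion factors numbered 2 with the mean of probe sets, without those probe sets and with array weights. Antagonists numbered 0 without those probe sets and 2 with the trended, robust spread. Beta-catenin core genes numbered 4 without dim genes and 1 with the mean of probe sets, without those probe sets and with every probe set tested. Feedback targets numbered 1 with the mean of probe sets. With 1 array left out, counts ran from 1 to 4 for ligands, 1 to 4 for Frizzleds and co-receptors, 3 to 6 for planar polarity partners, 0 to 2 for secretion factors, 0 to 1 for antagonists, 0 to 2 for core genes, 0 to 1 for feedback targets and 2381 to 3881 for all genes. The causes were not tested.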

Other observations

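Leaving out control shRNA replicate 4 raised the number of genes called over the whole array from 3294 to 3881. In the further Wnt lists it brought 7 genes past the threshold and lost 3 others. Those named here were named after their values were seen. Among those gained, the ligand genes WNT8A and WNT9A rose by 0.24 and 0.52, the syndecan gene SDC4 by 0.18 and TNFRSF19 by 0.24. FZD1 fell by 0.16, and CELSR2, a planar polarity cadherin gene, fell by 0.30. PTK7, DVL1 and DKK3 were no longer called, with differences of 0.23, 0.29 and -0.48. With that array left out, CELSR1 and CELSR2 therefore passed in opposite directions, at 0.40 and -0.30.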
